A study of Mus musculus with 2 samples.

Results

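The Hippo pathway was read through 9 of its genes in the jejunal crypt cells of mice that lack miR-375: the coactivators Yap1 and Wwtr1 (TAZ), their DNA-binding partners Tead1, Tead3 and Tead4, the kinases Lats1 and Lats2, and the target genes Ctgf and Cyr61. The genes were chosen by name, with Yap1 included as a reported target of miR-375, and they are 9 of the 27998 genes in the matrices. The samples were crypts of the small intestine (jejunum) of 2 male mice, 12 months old, with the genotype miR-375 knockout (375KO), given as strain C57BL6/2J and made by CRISPR/Cas9 deletion in the whole body with backcrossing to B6 albino mice. Each mouse gave 1 droplet library, called replicate 1 and replicate 2. No wild-type library was analysed here, so every comparison below is between cell types of knockout mice, and none measures an effect of the deletion. Because the deletion is present in every cell of the animal, both mice share it in all types.

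The Hippo pathway is a kinase cascade that restrains growth: Mst kinases (Stk3 and Stk4) activate Lats kinases, and Lats kinases phosphorylate the coactivators Yap and Taz and keep them out of the nucleus. Unphosphorylated Yap and Taz enter the nucleus and activate genes through Tead transcription factors, Ctgf and Cyr61 being the most used readouts. In the intestinal epithelium, Yap is known for its part in regeneration after injury and in the control of stem cell fate. The pathway acts mainly on the proteins, which these data do not measure.

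In the epithelium of these mice, Yap1 made the largest share of counts in stem cells, goblet progenitors and transit-amplifying cells. No pair of these types differed by test. Tead1 was most frequent in tuft cells (on the mean of the mice) and, Paneth cells apart, least in enterocytes. Cyr61 was most frequent in goblet cells, where its level was the highest of all types in both mice. Lats1 did not pass the test across types once Paneth cells were left out. Tead3 did not vary beyond its spread, Wwtr1, Tead4 and Lats2 were near the limit of detection, and no Ctgf transcript was counted in either library.

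The kept cells numbered 2082 in replicate 1 and 1193 in replicate 2, with 44017234 and 22163354 UMIs (unique molecular identifiers, tags that let each captured RNA be counted once). The authors annotated them as 9 epithelial types (3207 cells) and intraepithelial lymphocytes (IEL, 68 cells), and the libraries shared 0 cell barcodes. Of 55 listed cell type markers, 46 were highest in their own type in both mice. The exceptions lay in the goblet progenitors (0 of 4, with markers shared with goblet cells), transit-amplifying (TA) cells (3 of 6), stem cells (5 of 6) and secretory progenitors (2 of 3). Secretory progenitors (31 and 19 cells), enteroendocrine cells (EEC, 54 and 20) and tuft cells (40 and 38) rest on the fewest epithelial cells. In Paneth cells, 10 genes held 82.6% and 81.9% of the UMIs, so that a level per 1000000 UMIs (CPM) is not comparable there with other types. The median mitochondrial share per cell was 10.2% in replicate 1 and 5.55% in replicate 2.

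Motifs bound by Tead factors were looked for in the promoters of the members, since Yap and Taz reach DNA through them. RefSeq promoters (GRCm38.p6, 250 bases before to 50 bases after a start site) were matched by symbol for 6 of the 9 members. The letters GGAATG, on either strand, were present at least once for 5 of these 6 genes (Yap1, Wwtr1, Tead3, Lats2 and Cyr61, not Lats1). Over all genes in the table, 16.6% had such a promoter, and 14.7% of the 32851 single windows counted held the letters. Several members have more than 1 overlapping window, so the counts per gene and per window differ. A match is a description of the sequence and shows no binding. The windows of both coactivators, of a kinase and of the detected target are shown because they span the pathway. They are written 5′ to 3′ on the gene's own strand (minus for all 4), with the motif or its reverse complement in capitals.
Yap1, chr9:8004720-8004749, motif 141 bases before the start: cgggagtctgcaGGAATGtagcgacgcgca
Wwtr1, chr3:57576029-57576058, motif before the start: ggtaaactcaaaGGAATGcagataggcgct
Lats2, chr14:57746102-57746131, motif just after the start: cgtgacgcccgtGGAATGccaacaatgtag
Cyr61, chr3:145650071-145650100, motif 103 bases before the start: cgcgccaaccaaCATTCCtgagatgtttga

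Yap1 (chromosome 9, 7931999-8004596, minus strand, mm10), the coactivator that Lats kinases restrain, gave 760 UMIs in the epithelial cells of replicate 1 and 584 in replicate 2. Its level over all epithelial cells was 17.4 CPM in replicate 1 and 26.6 CPM in replicate 2, with exact Poisson 95% intervals that cover counting error only, as all intervals here. Replicate 2 was the higher mouse in 7 of the 9 types, so the level of Yap1 differed between mice as well as between types. The part of depth or mitochondrial share in this was not tested.

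Stem cells held 29.2 and 44.9 Yap1 CPM in replicates 1 and 2. Goblet progenitors held 22.3 and 46.2 CPM, and TA cells 22.3 and 38.5 CPM. These 3 types led the order, and within each mouse their neighbours overlapped in their counting intervals. Enterocytes followed with 16.5 and 26.7 CPM, and tuft cells with 21.8 and 16.1 CPM. Goblet cells held 13.5 and 21.0 CPM, and secretory progenitors 13.0 and 13.4 CPM from 6 and 3 UMIs. EEC held 12.9 and 9.28 CPM from 8 and 2 UMIs, and Paneth cells 1.99 and 2.52 CPM. No pair of neighbours in this order differed by the test described next. IEL had 0 Yap1 UMIs in both mice, which allows up to 11.4 and 13.3 CPM at their depth, so levels up to these limits could not have been told from 0.

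**Figure D1:**
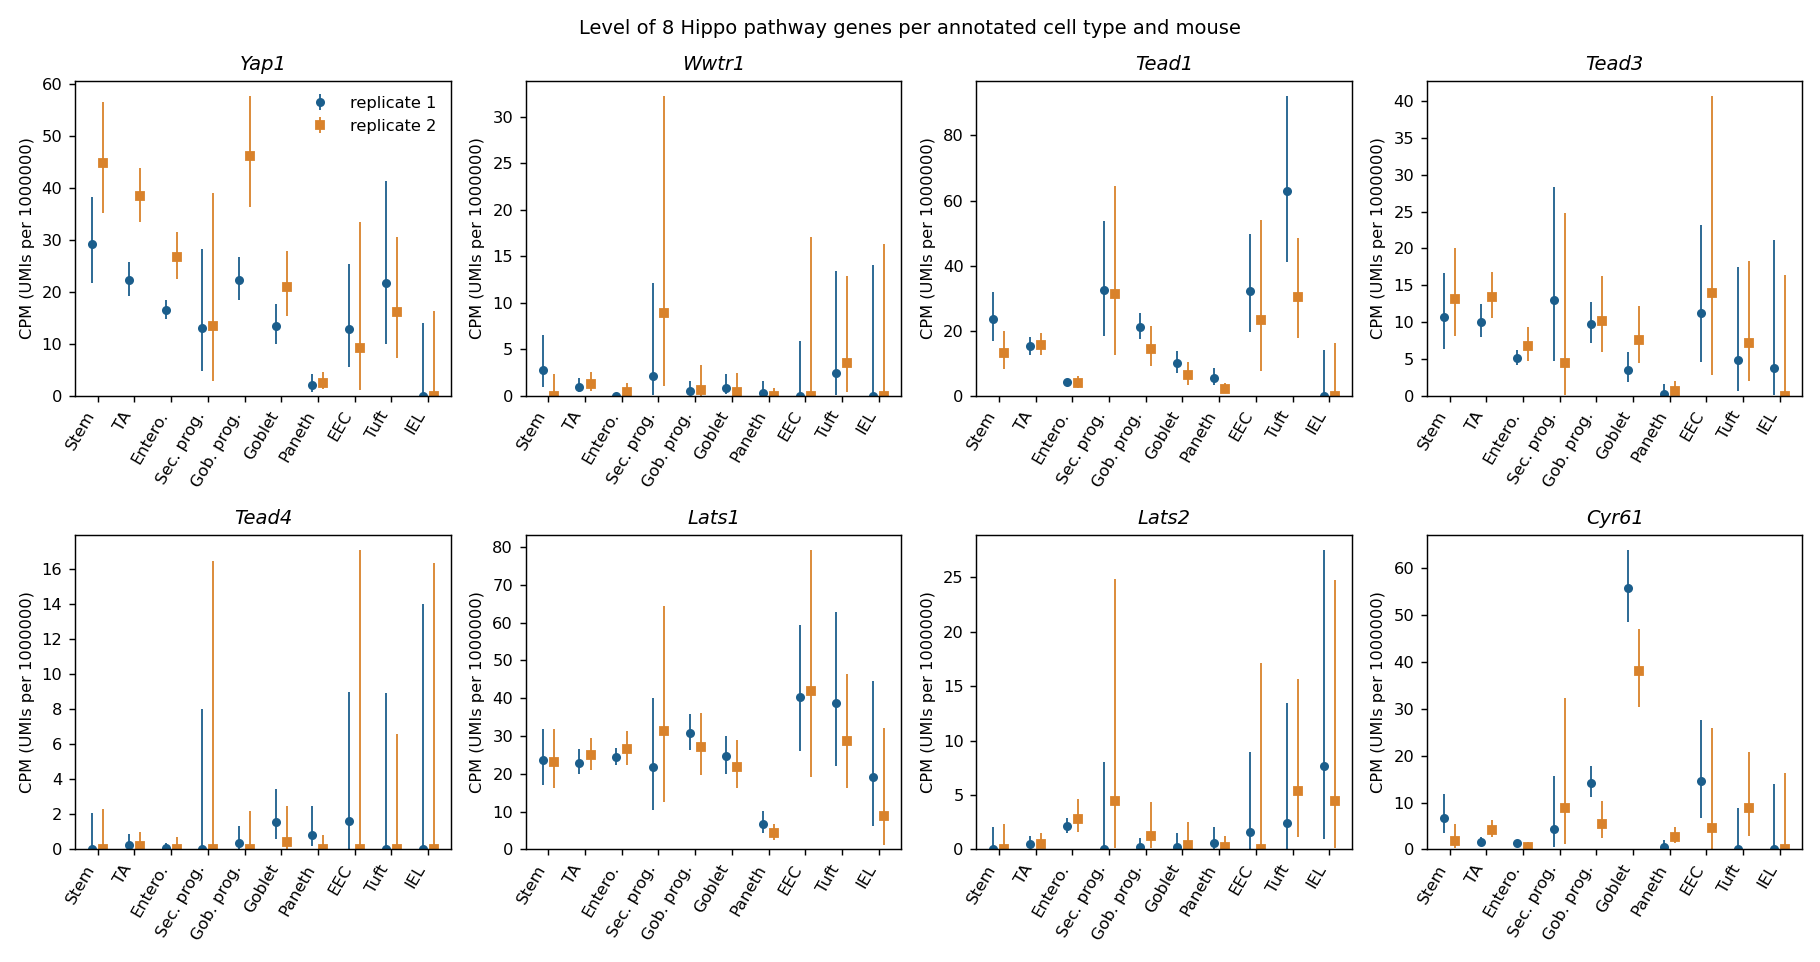
Level of the 8 detected members (CPM, UMIs per 1000000 UMIs of the type) in each annotated cell type; circles are replicate 1, squares replicate 2, and bars exact Poisson 95% intervals. Cyr61 stands out in goblet cells (55.8 and 38.0 CPM), Tead1 is highest in tuft cells on the mean of the mice (62.9 and 30.4 CPM, with secretory progenitors at 31.2 CPM in replicate 2), and Yap1 is higher in replicate 2 in 7 of 9 epithelial types.

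UMIs were summed per mouse and type and tested with edgeR's quasi-likelihood method with TMM scaling and the mouse as a term (18 sums, Benjamini-Hochberg adjustment over 11013 genes, two-sided, threshold 0.05). Only 5 of the 9 members passed the filter on low counts: Yap1, Tead1, Tead3, Lats1 and Cyr61. The types were clustered by the authors from expression in the same cells, so these tests describe how the annotated classes stand apart. Across the 9 types, 4 of the 5 tested members varied, beside 77.3% of all genes tested. The adjusted p was 0.0038 for Yap1, 4.8e-08 for Tead1, 0.012 for Lats1, 3.9e-05 for Cyr61 and 0.151 for Tead3. Without the mouse as a block the adjusted p was 0.133 for Yap1 and 0.052 for Lats1, and both fell short of the threshold. Lats1 also missed it with no filter on low counts (adjusted p = 0.131), after thinning each cell to 5000 UMIs (0.235), under a stricter filter on cells (0.069) and with Paneth cells left out (0.173).

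In stem cells, Yap1 was higher than the mean of the other 8 types by 0.90 on the log2 scale (SE 0.20, edgeR quasi-likelihood adjusted p = 0.0012), with 0.76 in replicate 1 and 1.06 in replicate 2. It was the 1 member of 5 that passed in stem cells, beside 25.6% of all genes. Without the mouse block the value was 0.94 with an adjusted p of 0.088. In goblet progenitors, Yap1 was higher by 0.56 (SE 0.19, edgeR adjusted p = 0.047), again as the only member of 5, beside 12.1% of all genes. That difference was 0.19 in replicate 1 and 1.0 in replicate 2. It missed the threshold with DESeq2 (adjusted p = 0.102) and without the mouse block (0.434). Of the 36 pairs of types, 6 passed for Yap1, beside 25.8% of all gene and pair combinations. Stem cells exceeded EEC by 1.73 (SE 0.43) and tuft cells by 1.25 (SE 0.37), and goblet progenitors exceeded EEC by 1.43 (SE 0.43).

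Depth per cell differs between types, so the share of cells with a Yap1 UMI was also read after thinning each cell to 5000 UMIs. After thinning, 15.4% of 136 stem cells in replicate 1 and 18.8% of 117 in replicate 2 had a Yap1 UMI. Before thinning the shares were 32.4% and 46.2%. Thinned enterocytes gave 8.17% and 13.1%, and thinned TA cells 10.0% and 13.6%. In IEL, lymphocytes used here as the background, 0 of 11 and 0 of 18 thinned cells had a UMI. So few cells allow shares of up to 27.3% and 16.7%, so by thinned shares the background could not be told from stem cells. Stem cell Yap1 intervals before thinning began at 21.8 and 35.1 CPM and lay above the IEL intervals in both mice. The median depth before thinning was 12282 and 12559 UMIs in stem cells and 4110 and 10226 in IEL. The stem cell share was the highest of the 9 types in both mice.

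Wwtr1 (chromosome 3, 57455649-57575910, minus strand), which encodes Taz, the partner coactivator of Yap, was scarce. It gave 22 and 15 epithelial UMIs, or 0.503 and 0.684 CPM, and did not pass the filter on low counts. TA cells held 15 of the 37 UMIs. Secretory progenitors had the highest mean level, from 1 and 2 UMIs only, and EEC had none in either mouse. With no filter on low counts, its adjusted p across types was 0.177 by edgeR's quasi-likelihood test. At this depth no order of the types can be read for Wwtr1.

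Tead1 (chromosome 7, 112679318-112906807, plus strand), a Tead factor that carries Yap and Taz to DNA, varied across the types, while Tead3 did not pass the test. Tuft cells held 62.9 and 30.4 CPM in replicates 1 and 2. Secretory progenitors held 32.6 and 31.2 CPM, and EEC 32.2 and 23.2 CPM. These rare secretory and tuft types lay at the top in both mice, tuft cells first in replicate 1 and secretory progenitors first in replicate 2. Stem cells held 23.5 and 13.1 CPM, goblet progenitors 21.0 and 14.4 CPM, and TA cells 15.2 and 15.6 CPM. Goblet cells held 10.0 and 6.26 CPM, enterocytes 4.13 and 3.93 CPM, and Paneth cells 5.41 and 2.06 CPM. Tead1 was the higher in replicate 1 in 8 of 9 types, the opposite of Yap1. IEL had 0 UMIs.

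Enterocytes held less Tead1 than the mean of the other types. The log2 difference was -2.12 (SE 0.22, edgeR adjusted p = 1.0e-09), -2.11 in replicate 1 and -1.79 in replicate 2, and it passed under each of the 9 alternative fits. In tuft cells Tead1 was higher by 1.26 (SE 0.28, edgeR adjusted p = 0.0017), 1.48 in replicate 1 and 0.91 in replicate 2, and this too passed under each of the 9. Tead1 was the only 1 of 5 members called in tuft cells, beside 16.0% of all genes. In enterocytes 2 of 5 were called, beside 54.5% of all genes. Goblet cells also held less Tead1 (log2 difference -0.82, SE 0.25, edgeR adjusted p = 0.011), a difference that missed the threshold without the mouse block (adjusted p = 0.089) and after thinning (0.612).

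Along the order of Tead1 levels, goblet cells exceeded enterocytes by 1.15 (SE 0.32, edgeR adjusted p = 0.0032). The 6 steps above them did not pass, from tuft cells down to goblet cells. Of the 36 pairs of types, 17 passed for Tead1, more than for any other member, beside 25.8% of all gene and pair combinations. The last step, from enterocytes to Paneth cells, passed with the opposite sign under TMM scaling (-2.76, SE 0.40). The 5 enterocyte clusters ranged from 1.63 to 7.43 CPM in replicate 1 and from 0 to 8.52 CPM in replicate 2, and the same cluster was highest in both mice.

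**Figure D2:**
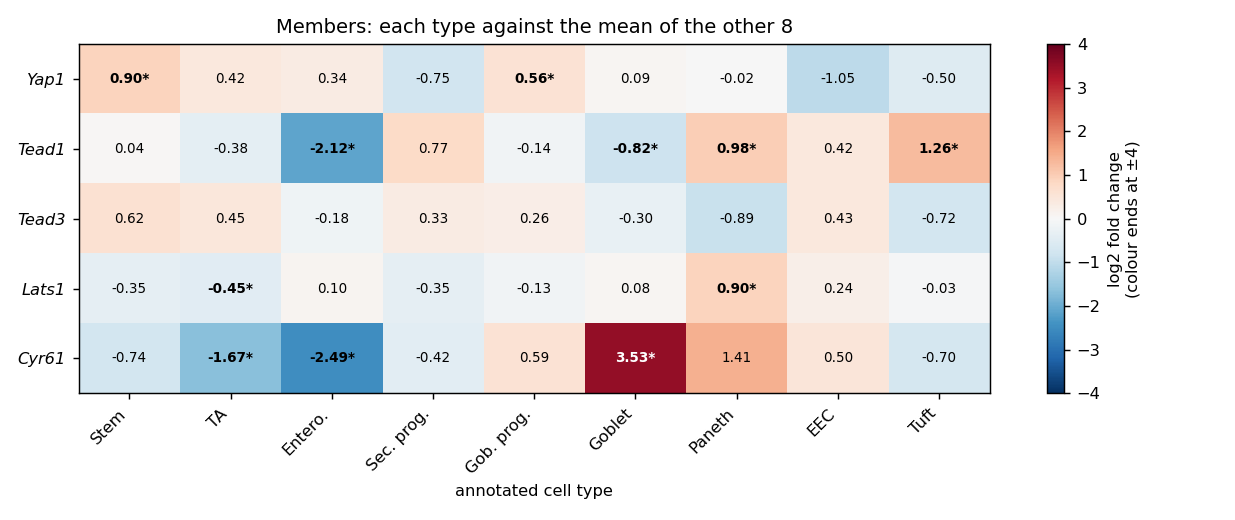
Log2 fold change of the 5 tested members in each type against the mean of the other 8, from edgeR with TMM factors; colour and printed value show the change, and bold with an asterisk marks an adjusted p under 0.05. Of 45 combinations 11 passed, beside 4.78% (secretory progenitors) to 54.5% (enterocytes) of all genes in a type. Cyr61 in goblet cells (3.53) and Tead1 in enterocytes (-2.12) were among them, and Tead3 has none.

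Tead3 (chromosome 17, 28331671-28350817, minus strand), a second Tead factor, gave 284 and 179 epithelial UMIs. EEC held 11.3 and 13.9 CPM, stem cells 10.7 and 13.1 CPM, and TA cells 10.1 and 13.5 CPM. Enterocytes held 5.11 and 6.73 CPM, and goblet cells 3.44 and 7.60 CPM. Paneth cells were lowest at 0.284 and 0.687 CPM. By edgeR and by DESeq2, 0 of the 9 types differed from the mean of the others and 0 of the 36 pairs passed. At an unadjusted p under 0.05 by edgeR, 0 types and 3 pairs passed. The log2 difference furthest from 0 in units of its error was 0.62 (SE 0.31), in stem cells. Across types Tead3 passed, of the alternatives run, only when sums were scaled by library totals alone (adjusted p = 3.1e-08).

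Tead4 (chromosome 6, 128224288-128300823, minus strand), the third member of the family, gave 16 UMIs in replicate 1 and 2 in replicate 2. Goblet cells held 7 of these 18 UMIs. Stem cells, secretory progenitors and tuft cells had 0 in both mice, which at their depth allows up to 1.68 CPM in the stem cells of replicate 1 but 13.4 CPM in the secretory progenitors of replicate 2. Absence from the rare types was therefore not detectable.

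Lats1 (chromosome 10, 7681214-7716460, plus strand), a kinase that inactivates Yap and Taz, was counted 1042 and 467 times. EEC held 40.3 and 41.8 CPM, tuft cells 38.7 and 28.6 CPM, and goblet progenitors 30.7 and 27.0 CPM. Enterocytes held 24.4 and 26.6 CPM, goblet cells 24.6 and 21.9 CPM, stem cells 23.5 and 23.1 CPM, and TA cells 23.0 and 25.01 CPM. These 4 types overlapped in their counting intervals in both mice, but by the pairs test with TMM factors enterocytes exceeded TA cells by 0.49 (SE 0.18, edgeR adjusted p = 0.021). Secretory progenitors held 21.7 and 31.2 CPM. Paneth cells held 6.83 and 4.35 CPM. In IEL the level was 19.0 and 8.87 CPM from 5 and 2 UMIs. With Paneth cells left out, the adjusted p of Lats1 across types was 0.173 by edgeR.

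By edgeR with TMM factors, Lats1 was lower in TA cells (log2 difference -0.45, SE 0.15, adjusted p = 0.021), where 2 of 5 members passed beside 32.8% of all genes. The TA difference was lost without the low-count filter, without the mouse block, after thinning, under the stricter cell filter and without Paneth cells. Scaled by library totals it was 0.07 with an adjusted p of 0.749. In Paneth cells Lats1 was higher by 0.90 (SE 0.25, edgeR adjusted p = 0.0063), and Tead1 by 0.98 (SE 0.33, edgeR adjusted p = 0.025), 2 of 5 members beside 27.0% of all genes. Both signs depend on the scaling. By library totals the Paneth values were -2.32 for Lats1 and -2.21 for Tead1. That scaling put the median of all genes in Paneth cells at -3.20, and relative to this median Lats1 stood at 0.88 and Tead1 at 0.99. After thinning the values were -0.24 for Lats1 and -0.87 for Tead1, or 0.38 and -0.25 relative to the median of all genes. The TMM factors of the Paneth sums were 0.156 and 0.121, against 0.952 to 1.59 elsewhere. After thinning only 1 of 78 and 0 of 54 Paneth cells had a Tead1 UMI, and 1 of 78 and 1 of 54 a Lats1 UMI. These counts are too few to read the thinned values, and neither gene passed there. By TMM factors and by library totals both Lats1 and Tead1 were above the median gene in Paneth cells.

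**Figure D3:**
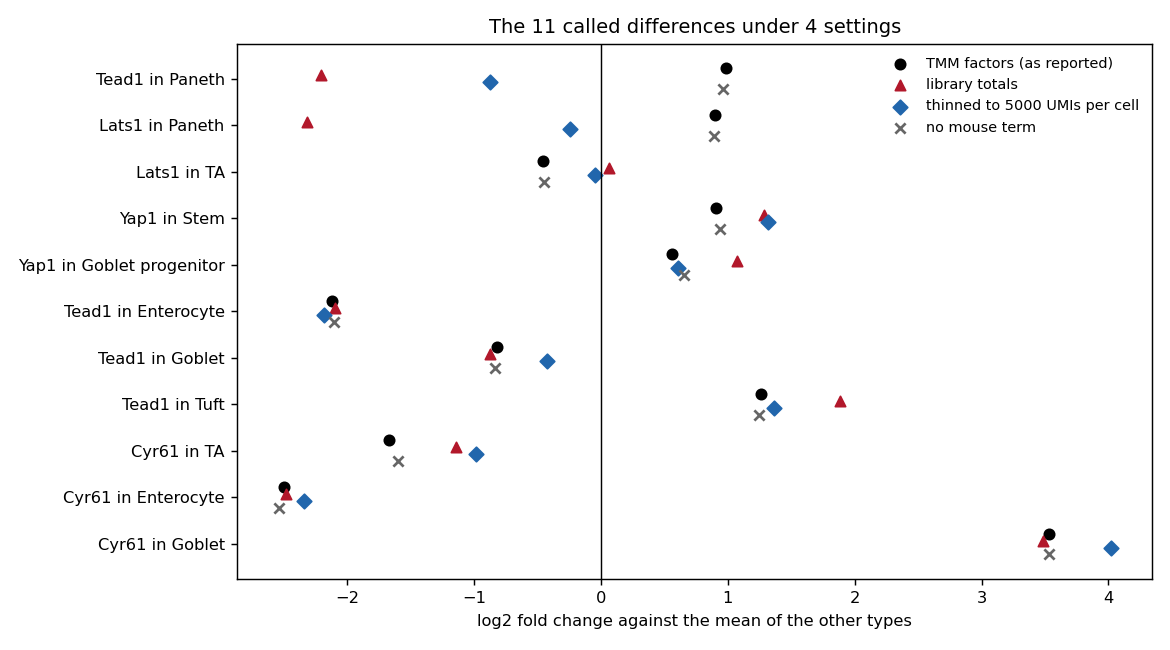
The 11 member differences that passed, each as a log2 fold change against the mean of the other types, under 4 settings: TMM factors (black circles), library totals (red triangles), cells thinned to 5000 UMIs (blue diamonds) and no mouse term (grey crosses). The 2 Paneth values change sign with the scaling (0.98 to -2.21 for Tead1, where the median of all genes is at -3.20), while Tead1 in enterocytes and tuft cells and Cyr61 in goblet cells keep theirs.

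Lats2 (chromosome 14, 57689662-57758388, minus strand), the second Lats kinase and itself a known target of Yap, gave 51 and 26 epithelial UMIs. The annotation places a protein-coding gene model, Gm49361, over it on the same strand, so its counts are uncertain. Enterocytes held 56 of the 77 UMIs, at 2.12 CPM in replicate 1 and 2.80 CPM in replicate 2. TA cells held 0.474 and 0.525 CPM, and goblet cells 0.264 and 0.447 CPM, below enterocytes in both mice. Stem cells had 0 UMIs in both mice, which allows up to 1.68 and 1.87 CPM. The enterocyte levels lay above these limits, but their counting intervals began at 1.52 and 1.57 CPM and so overlapped them. With no filter on low counts, the log2 difference of stem cells was -4.92 (SE 2.29) and did not pass by edgeR. Tuft cells had a higher mean than enterocytes, from 1 and 3 UMIs. IEL gave 7.62 and 4.44 CPM from 2 and 1 UMIs.

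Lats2 did not pass the filter on low counts. With no filter, edgeR's quasi-likelihood test gave an adjusted p of 0.0027 across types, and enterocytes were higher than the mean of the others by 2.04 (SE 0.62, adjusted p = 0.0038). Among the authors' enterocyte clusters, cluster 1 held 2.85 and 12.5 CPM, cluster 3 held 3.39 and 1.19 CPM, and cluster 9 held 3.34 and 1.13 CPM. Cluster 2 held 0 and 1.31 CPM, and cluster 6 held 0.307 and 0 CPM. Only cluster 1 was above 2 CPM in both mice, and clusters 2 and 6 were low in both. The clusters were not compared by a test.

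Ctgf (Ccn2, chromosome 10, 24595442-24598683, plus strand), which encodes a matricellular protein and is a standard Yap readout, had 0 UMIs in the kept cells. It also had 0 UMIs in all 7665 and 1251 barcodes of the matrices, which hold 64305085 and 23675011 UMIs. A count of 0 allows up to 3 in each library. Its protein family partner Cyr61 was counted in the same libraries, so the pathway's usual pair of readouts was reduced to 1 gene here.

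Cyr61 (Ccn1, chromosome 3, 145646976-145649981, minus strand), a secreted matricellular protein, gave 353 and 144 epithelial UMIs. Goblet cells, the mucus-secreting cells, held 55.8 CPM in replicate 1 (95% interval 48.5 to 63.8) and 38.0 CPM in replicate 2 (30.4 to 47.0). Goblet progenitors held 14.1 and 5.40 CPM, and EEC 14.5 and 4.64 CPM. The goblet values were above all the other types in both mice. Their counting intervals overlapped only that of the secretory progenitors of replicate 2, which reached 32.2 CPM from 2 UMIs. Stem cells held 6.73 and 1.87 CPM, secretory progenitors 4.34 and 8.93 CPM, and tuft cells 0 and 8.93 CPM. TA cells held 1.54 and 4.20 CPM, Paneth cells 0.569 and 2.75 CPM, and enterocytes 1.45 and 0.561 CPM. These low types changed places between the mice. The tuft value of replicate 2 came from 5 UMIs in 1 cell. With TMM scaling, which raises the Paneth levels, Paneth cells stood at 3.66 and 22.7 CPM and goblet cells at 56.2 and 40.0 CPM.

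In goblet cells Cyr61 was higher than the mean of the other types by 3.53 on the log2 scale (SE 0.37, edgeR adjusted p = 9.4e-06), by 4.11 in replicate 1 and 3.17 in replicate 2. Cyr61 and Tead1 were the 2 of 5 members called in goblet cells, beside 29.2% of all genes. The Cyr61 difference ranged from 3.48 to 4.02 over the 9 alternative fits and passed in each. Goblet cells exceeded goblet progenitors by 2.62 (SE 0.48, edgeR adjusted p = 0.0014). The 1 goblet pair that did not pass was that with Paneth cells (1.88, SE 0.72, edgeR adjusted p = 0.095). In enterocytes Cyr61 was lower (log2 difference -2.49, SE 0.62, edgeR adjusted p = 0.0043), with -1.36 in replicate 1 and -2.77 in replicate 2, a call lost after thinning. Its lower value in TA cells (-1.67, SE 0.58, edgeR adjusted p = 0.045) was lost in 6 of the 9 alternative fits. By the pairs test 9 of 36 pairs passed for Cyr61, near the share of 25.8% over all gene and pair combinations.

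Cyr61 was not evenly spread over goblet cells. In replicate 1, 78 of 277 goblet cells had at least 1 Cyr61 UMI, and in replicate 2, 27 of 138. The most in a single cell was 8 UMIs in both mice. The 20 goblet cells of replicate 1 with the most Cyr61, and 8 in replicate 2, held 50% of the goblet counts. After thinning to 5000 UMIs per cell, 17.0% of 276 goblet cells in replicate 1 and 12.3% of 138 in replicate 2 had a UMI, against 0.645% and 0% of enterocytes. In the IEL background it was 0 of 11 and 0 of 18 cells, at a median depth of 4110 and 10226 UMIs. That again allows up to 27.3% and 16.7%, above the goblet shares, so by thinned shares the IEL set no lower background. Before thinning, the goblet CPM intervals began at 48.5 and 30.4 CPM and lay above the IEL intervals in both mice. The median goblet depth was 13649 and 15709 UMIs before thinning.

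Genes of the immediate early response, which rise within minutes of many stimuli including tissue dissociation, were high where Cyr61 was highest. The summed level of 9 such genes was 3597 and 1977 CPM in goblet cells, and 3537 and 2748 CPM in EEC. It was 1220 and 821 CPM in goblet progenitors, 1034 and 501 CPM in enterocytes, and 373 and 414 CPM in stem cells. Goblet cells and EEC lay above the other epithelial types in this list in both mice, while Cyr61 was higher in goblet cells than in EEC by 2.70 (SE 0.78, edgeR adjusted p = 0.021). For a comparison within types, cells were thinned to 5000 UMIs in a separate random draw, so numbers of cells with Cyr61 differ slightly from the shares above. Within goblet cells, the 44 cells with Cyr61 in replicate 1 had a median of 29.5 immediate early UMIs, and the 232 without had 12. In replicate 2 the medians were 17 in 15 cells with Cyr61 and 9 in 123 without. Goblet progenitors of replicate 1 had 14 in 10 cells with Cyr61 and 3.5 in 152 without. Those of replicate 2 had 6 in 2 cells with it and 3 in 82 without. EEC of replicate 1 had 35 in 4 cells with it and 14 in 49 without. The part of this response in the Cyr61 level was not tested.

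**Figure D4:**
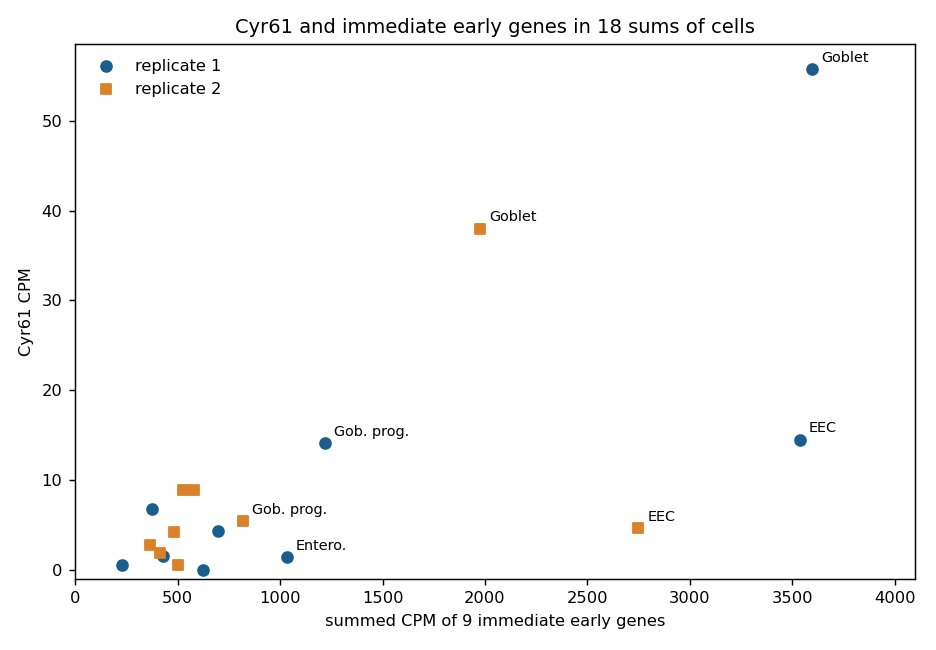
Cyr61 level (CPM, vertical) against the summed level of 9 immediate early genes (CPM, horizontal), 1 point per epithelial type and mouse; circles are replicate 1 and squares replicate 2. Goblet cells are high in both (3597 and 55.8 in replicate 1), while EEC of replicate 1 are nearly as high on the horizontal axis and lower on the vertical axis (3537 and 14.5).

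Fibroblasts and endothelium are strong sources of Ctgf and Cyr61 in the intestine. Of the 8 listed stromal and endothelial genes, Col1a2, Col3a1 and Dcn (fibroblasts) and Kdr (endothelium) were at 0 in every epithelial type of both mice. Col1a1, Acta2, Vim and Pecam1 were not: in goblet cells Pecam1 and Acta2 were counted in replicate 1, and Pecam1 and Col1a1 in replicate 2. The summed level of the list was 1.06 and 8.49 CPM in goblet cells, and from 0 to 14.3 CPM in all the epithelial types but EEC. In EEC it was 603 CPM, from Vim and Pecam1 alone, and 576 CPM, from Vim alone. In IEL it was 415 and 457 CPM, with Col1a1, Col1a2, Col3a1, Dcn and Acta2 at 0. The part of stromal RNA in the Cyr61 level was not tested.

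Of the 5 members with enough counts, no pair followed the same order of types in both mice closely. The Pearson r between Yap1 and Tead1 over the 9 types was -0.31 in replicate 1 and -0.54 in replicate 2, and between Yap1 and Cyr61 -0.16 and -0.15. These are descriptions over points that share a library and differ in depth. The genes most like each member were ranked by the lower of the 2 per-mouse r values on the log2 CPM scale with TMM factors over 9 types. For Yap1 they were Rp9, Sdsl, Mrpl23, Pgls and Ephx1, with a lower r from 0.81 to 0.86. For Tead1 they were Stra6l, Sorcs2, Tacc1, Sumo2 and Nrtn (0.87 to 0.92). For Lats1 they were Nbr1, Ano10, Thap7, Dnajb9 and Srp68 (0.88 to 0.92), and for Cyr61 Trim47, Gtf2a2, Spire1, Pdia5 and Scnn1a (0.79 to 0.81). For Tead3 they were Lipg, Lysmd2, Scaf4, Nom1 and Muc4 (0.82 to 0.87). Each set was picked as the highest 5 of 11013 genes over 9 points, so its r values are raised by that choice. The members' own r between the mice was 0.87 for Yap1, 0.91 for Tead1, 0.77 for Lats1, 0.46 for Cyr61 and 0.23 for Tead3, so the likeness of Tead3 and Cyr61 to other genes rests on patterns that the mice share less.

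The rest of the pathway was read from 3 lists. Of 30 upstream genes (kinases, scaffolds and polarity inputs), 23 were tested and 16 varied across types. This list mixes activators and inhibitors of Lats kinases, so its counts give no direction of pathway activity. Of 4 further TEAD partners, 2 were tested and both varied, and of 18 targets of a published Yap and Taz signature, 7 were tested and all 7 varied, beside 77.3% of all genes. Targets that could not be tested included Ankrd1 and Foxf2, both at 0 UMIs. A list of genes that passed the filter only where they are high had to differ, so these counts describe the lists.

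In enterocytes, 9 of the 23 tested upstream genes were higher and 4 lower, beside 31.3% and 23.2% of all genes, and their median log2 difference was 0.26 beside 0.03 for all genes. These upstream counts were 6 higher and 4 lower with DESeq2 size factors, 5 and 1 of 22 after thinning, 3 and 3 under the stricter filter on cells, and 3 and 1 without the mouse block. Wwc1 (Kibra), a scaffold that activates Lats kinases, was higher in enterocytes by 2.56 (SE 0.17). Csnk1e, a casein kinase, was lower (log2 difference -3.30, SE 0.28). Tead2, the remaining Tead factor, was near 0 in enterocytes, at 0.0511 and 0 CPM with TMM scaling. Of the 7 tested targets 5 were higher in enterocytes and 0 lower, with a median of 0.69, while Cyr61 was lower there. At an unadjusted p under 0.05 by edgeR 0 targets were lower as well, and DESeq2 called 3 higher and 1 lower. The excess of higher targets did not hold under the stricter filter on cells, with 1 of 7 higher and a median of -0.01, nor after thinning, with 1 of 5 higher and a median of 0.42. Without the mouse block, and without Paneth cells, 3 were higher.

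In goblet cells, where Cyr61 was highest, 3 of the 7 tested targets were higher and 0 lower, beside 17.8% and 11.4% of all genes, with a median of 0.55 beside -0.03. DESeq2 gave the same counts, and at an unadjusted p under 0.05 by edgeR 4 were higher and 1 lower. By library totals, and without the mouse block, 2 of 7 were higher. With IEL included 2 of 8 were higher, and after thinning 1 of 5. Myof, a membrane repair protein gene of that list, stood at 33.0 and 22.1 CPM with TMM scaling in goblet cells and was higher by 4.78 (SE 0.30). Wtip, a LIM protein that inhibits Lats kinases, was higher by 2.89 (SE 0.32), at 65.8 and 11.3 CPM. Amot, which holds Yap at junctions, was lower in goblet cells (log2 difference -2.08, SE 0.32). The upstream list as a whole had 1 gene higher and 3 lower in goblet cells, with a median of 0.02.

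In stem cells, where Yap1 was highest on the mean of the mice, 0 of the 7 tested targets were higher and 1 was lower, beside 15.4% and 10.1% of all genes, with a median of -0.20 beside 0.03 for all genes. At an unadjusted p under 0.05 by edgeR the counts were again 0 and 1, and DESeq2 called 0 higher and 2 lower. By library totals the median was 0.16 beside 0.40 for all genes. The target that was lower was Gadd45a, a stress response gene (log2 difference -1.29, SE 0.23). Amot and Wwc1 were the 2 of 23 upstream genes that were higher in stem cells, by 0.92 (SE 0.22) and 0.87 (SE 0.26). In TA cells 3 targets were lower and 0 higher, beside 13.6% and 19.2% of all genes, with a median of -0.83 beside 0.05 for all genes. By library totals, which shifted all genes in TA cells upward, 3 targets were higher and 2 lower. The target median was then -0.31 beside 0.56. Under the stricter filter on cells 1 was higher and 3 lower, and DESeq2 called 0 higher and 4 lower.

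In tuft cells, where Tead1 was highest on the mean of the mice, 4 of 23 upstream genes were higher and 0 lower, beside 10.0% and 5.98% of all genes. At an unadjusted p under 0.05 by edgeR 5 were higher and 0 lower, and DESeq2 called 4 and 0. After thinning, and without the mouse block, 2 were higher. Map4k4, a kinase that acts beside the Mst kinases, was higher by 1.49 (SE 0.22). Tead2 was higher in tuft cells by 2.35 (SE 0.56), at 6.38 and 18.9 CPM with TMM scaling, and in secretory progenitors by 3.99 (SE 0.52), at 10.9 and 69.3 CPM. In secretory progenitors 2 of 23 upstream genes were higher and 2 lower, beside 3.51% and 1.26% of all genes. In EEC 2 of 23 upstream genes were higher and 1 lower, beside 13.5% and 8.12% of all genes. Of the 7 tested targets, 3 were higher and 0 lower in EEC, the same counts as in goblet cells, with a median of 0.65. Without the mouse block 1 target was higher in EEC. Secretory progenitors had 2 of the 7 targets higher and 0 lower. Cyr61 was not called in either type. In goblet progenitors 1 of the 7 tested targets was higher and 1 lower, beside 8.93% and 3.22% of all genes. Both Tead1 and Tead2 were called lower in enterocytes and higher in tuft cells, although the tuft call of Tead2 was lost without the mouse block.

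**Figure D5:**
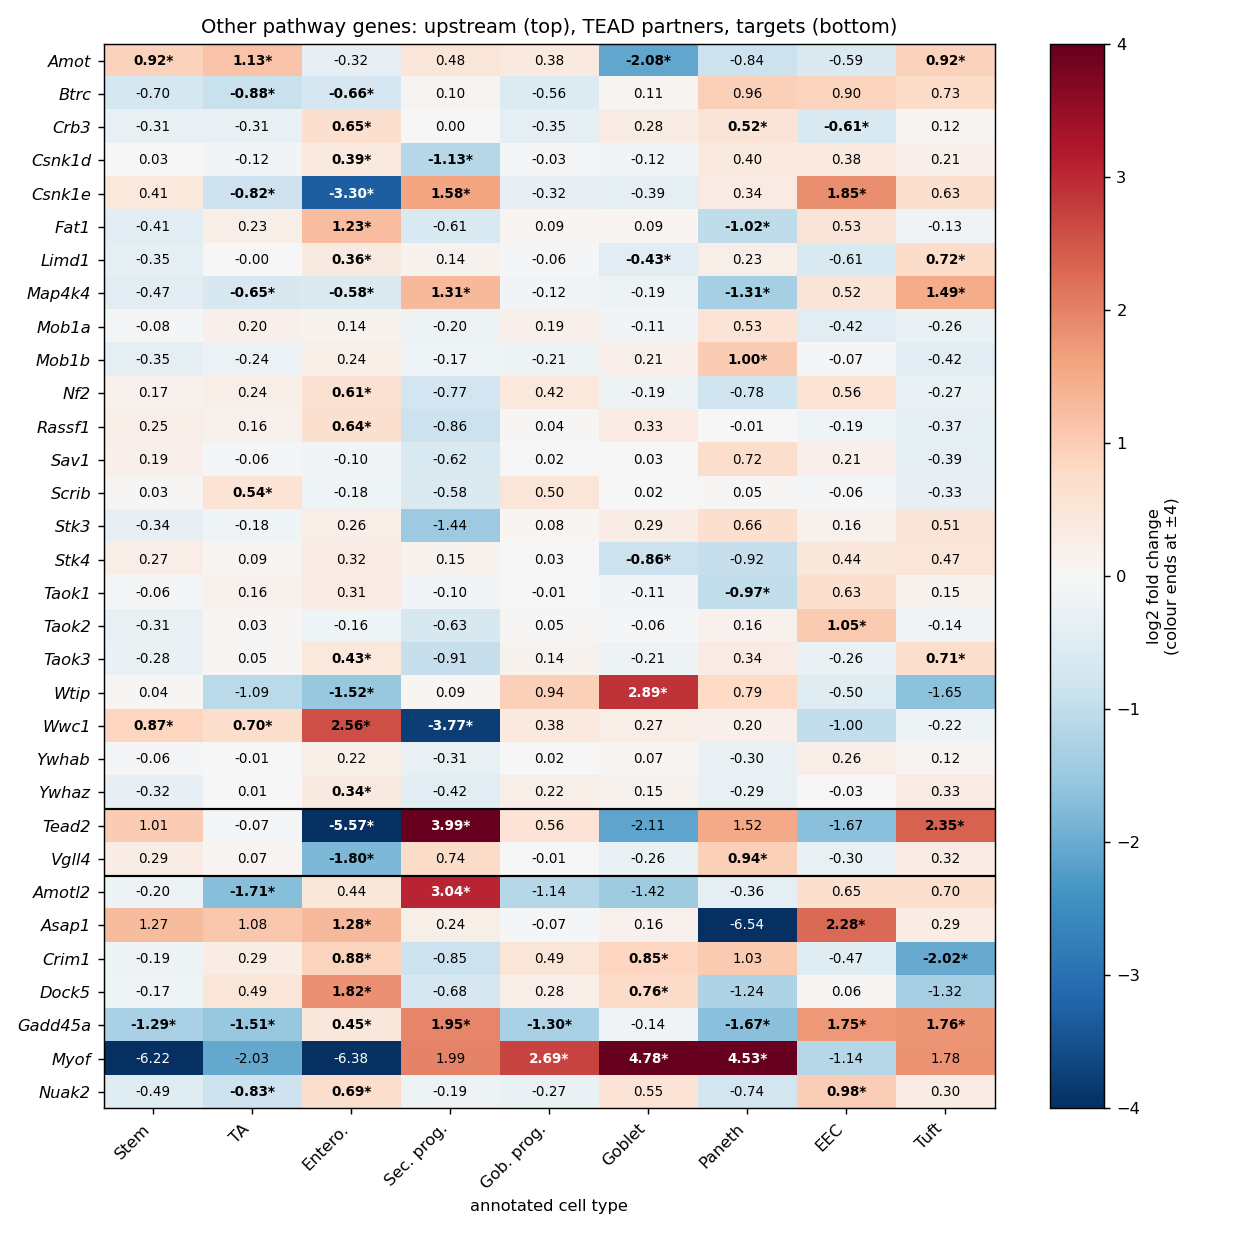
Log2 fold change of the 32 tested genes of the pathway lists in each type against the mean of the other 8, from edgeR with TMM factors; horizontal lines separate upstream genes, TEAD partners and targets, and bold with an asterisk marks an adjusted p under 0.05. Values beyond the colour range, such as Tead2 in enterocytes, come from types at or near 0 counts and are no bound.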

How the data were processed

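Jejunal crypt cells of 2 mice, 1 library each, were measured by droplet single-cell RNA sequencing. The authors aligned reads to mm10 with Cell Ranger 3.0.1 and deposited UMI counts per gene and barcode. SoupX removal of free RNA is stated, but not for which matrices. They removed called doublets and cells with fewer than 1500 genes or over 25 percent mitochondrial UMIs, a percent they deposited for each cell, and named the clusters. Annotations carry no barcodes and were joined by cell order. All 3275 cells matched the deposited count table in UMI total and gene number. The 2937 cell columns of another series were not used.

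Counts were summed per mouse and type, with no sum under 10 cells. Genes passing filterByExpr were fitted in edgeR 4.0.16 (R 4.3.3) with TMM factors, type and mouse as terms and robust quasi-likelihood tests, leaving out IEL. The mouse is a block because sums with the same number come from 1 animal. Residual degrees of freedom were 8, and p-values over 2 mice assume that types share 1 spread. SE is the log2 fold change over the square root of F. Changes within 1 mouse were computed with prior count 2, untested. A count of 0 allows up to 3 counts. Scripts were tested on simulated data. All 9 members are named, with full values for those called, the 5 most alike genes for each tested member, and at most 3 list genes for each contrast. The members and lists were chosen with earlier results of these data known. Alternatives were DESeq2 1.42.0 and its size factors, library totals, no filter, no mouse block, thinning to 5000 UMIs, a stricter cell filter (10 percent mitochondrial UMIs at most, 2000 genes at least), IEL included, Paneth cells left out, and each mouse left out. The mature miR-375 sequence and the miR-375 gene were not analysed here.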

Additional observations from a re-analysis of the deposited data

How the results depend on the processing

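The mouse served as the replicate block. Without this pairing the genes called fell from 2815 to 1019 in stem cells, 3609 to 1369 in TA cells, 6006 to 3946 in enterocytes, 526 to 195 in secretory progenitors, 1338 to 409 in goblet progenitors, 3215 to 1721 in goblet cells, 2384 to 1411 in EEC and 1761 to 1011 in tuft cells. The calls of members in types fell from 11 to 5, and the members that varied across types from 4 to 2. With library totals in place of TMM factors the counts were 6502 in TA cells, 1582 in secretory progenitors, 5547 in goblet progenitors, 9821 instead of 2969 in Paneth cells, 4133 in EEC and 3854 in tuft cells, with 19 calls of members in types. The share of called genes that were higher moved from 58.5% to 92.0% in TA cells and from 57.7% to 1.47% in Paneth cells. That setting reversed Tead1 (-2.21) and Lats1 (-2.32) in Paneth cells and Lats1 in TA cells (0.068). Thinning reversed Tead1 (-0.87) and Lats1 (-0.24) in Paneth cells, where at most 1 thinned cell per mouse had a UMI of each gene. It gave 1815 genes in stem cells, 3639 in enterocytes, 1719 in goblet cells, 803 in Paneth cells and 1118 in tuft cells, with 5 calls of members in types. It tested 8264 genes and 4 members, not Tead3. Of neighbouring types, 5 pairs of 40 passed, and 3 after thinning or without Paneth cells. With DESeq2 size factors, none of the called member differences among the 29 results computed with them was lost. Counts of genes shifted, for example from 1701 to 1683 higher genes in stem cells. The higher upstream genes in enterocytes fell from 9 to 6. With either mouse left out no residual degrees of freedom remained, and the called values kept their sign. The cause of these changes was not tested beyond the smaller number of genes or sums. The 2 mice, and the 19 to 54 cells behind the rarest epithelial sums, limit what the lowest members can show.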
